A study of Mus musculus with 10 samples.

Results

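The genes described here are 37 genes of T cells and of intraepithelial lymphocytes, the T cells that live among the epithelial cells of the gut. They were taken by symbol from the array's probe table: 35 of the 37 symbols had a probe, 56 probes in all, out of 25697 probes with 18138 symbols. Cd5 and Gzma were not analysed here. Total RNA was taken from the ileum, the far end of the small bowel, in 5 samples labelled iPGC-1β and 5 from wild-type littermates, and 1 biotin-labelled Illumina array was read for each sample. All mice were FVB/N and 3 to 4 months old. By iPGC-1β the field means a mouse with extra PGC-1β, the transcriptional coactivator encoded by Ppargc1b, in the gut epithelium; the sources used here do not give the promoter, the transgene, the sex or any pooling of animals. The study asked which ileal genes differ between the genotypes.

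T cells recognise antigen through a receptor whose signal enters the cell by the CD3 chains, the kinases LCK and ZAP70 and the adaptor LAT. In the small intestine many T cells carry CD8 and the integrin CD103, the product of Itgae with the beta7 chain, which binds E-cadherin on enterocytes. Such cells are known for a cytotoxic programme of granzymes, perforin and natural killer (NK) type receptors, and for making the chemokine CCL5. In RNA from whole tissue, fewer cells of a type and less RNA per cell cannot be told apart.

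Between 12370 and 12771 probes per array lay above background (detection p under 0.05), and 9365 genes passed the filter of at least 5 such arrays out of 10. By limma at an adjusted p under 0.05, 925 of them (9.88%) were higher and 694 (7.41%) lower in iPGC-1β. The Ppargc1b probe was itself lower, at 7.70 ± 0.41 in iPGC-1β and 8.32 ± 0.22 in wild-type (log2 intensity, SD, n = 5 each), with limma's adjusted p = 0.0452. Where this probe lies, and whether it can read a transgene, the sources used here do not give, so every direction rests on the arrays as labelled. The arrays were not alike in T cell genes. Of the 37 genes 19 passed the filter, and their mean log2 intensity was 7.41, 7.08, 5.68, 7.42 and 7.36 on iPGC-1β replicates 1 to 5, against 7.58, 7.33, 7.42, 7.62 and 8.00 on wild-type replicates 1 to 5. iPGC-1β replicate 3 lay far below every other array, and wild-type replicate 5 was the highest. Of the 56 probes 17 were above background on iPGC-1β replicate 3, against 29 to 31 on the other iPGC-1β arrays and 25 to 37 on the wild-type arrays. Over all probes that array was not short of signal, with 12649 probes above background and a median signal of 136.3, where the 10 medians ran from 127.7 to 155.1. The group differences of the 19 genes are therefore given below with and without iPGC-1β replicate 3. Those of genes on other lists are given with all arrays only. The number of arrays limits the precision of every value.

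Among the 19 measured genes 0 were called higher and 1, Klrd1, was called lower in iPGC-1β (limma, adjusted p under 0.05), beside 9.88% and 7.41% of all tested genes. At an unadjusted p under 0.05 limma picked 5 of the 19 (Ccl5, Cd8b1, Cd27, Nkg7 and Klrd1), beside 31.3% of all tested genes. The estimate was negative for all 19, where 55.8% of all tested genes were negative, and the median log2 difference was -0.56, against -0.053 over all tested genes. With no background correction the median of the 19 was -0.29, and with the authors' processed values -0.32. Without iPGC-1β replicate 3 the estimate was negative for 18, the median was -0.24, against -0.045 over all tested genes, and 0 were called higher and 1 lower, beside 8.36% and 5.40% of the genes tested on those 9 arrays. The gene called lower was then Ccl5 and no longer Klrd1. The 19 genes are made by overlapping sets of cells in the same samples, so they are not 19 independent observations. Negative estimates were not particular to them. With all arrays, 13 of 13 B cell markers (median -0.48), 10 of 13 pan-leukocyte genes (-0.43) and 15 of 18 enterocyte markers (-0.48) were negative. So were 9 of 16 macrophage and dendritic cell markers (-0.083), 4 of 7 plasma cell markers (-0.0071) and 8 of 9 smooth muscle markers (-0.031).

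**Figure D1:**
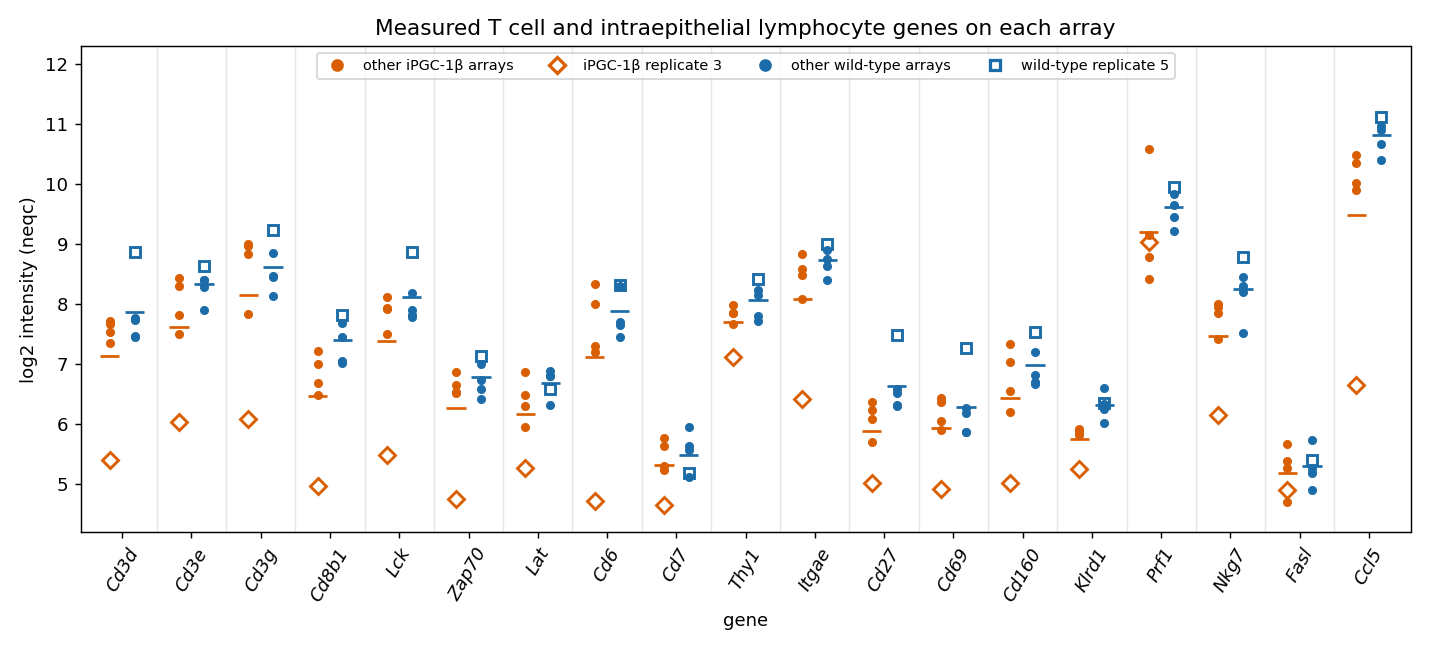
Log2 intensity (vertical axis) of the 19 measured genes on each array, with iPGC-1β to the left of wild-type for each gene; horizontal lines are group means, the open diamond is iPGC-1β replicate 3 and the open square wild-type replicate 5. The diamond is the lowest of the 10 points for 17 of the 19 genes, Prf1 and Fasl being the exceptions.

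The chains of the CD3 complex carry the signal of the T cell receptor. Cd3d had log2 intensities of 7.67, 7.36, 5.41, 7.53 and 7.72 in iPGC-1β, against 7.77, 7.47, 7.46, 7.74 and 8.87 in wild-type. Cd3e had 7.81, 7.50, 6.04, 8.30 and 8.44 in iPGC-1β, against 8.40, 7.91, 8.29, 8.41 and 8.64 in wild-type. Cd3g had 9.00, 7.84, 6.08, 8.84 and 8.97 in iPGC-1β, against 8.47, 8.13, 8.45, 8.85 and 9.23 in wild-type. In each chain the groups overlapped, and 1 array, iPGC-1β replicate 3, stood more than 1 log2 unit below all the other 9. Cd3d differed by -0.73 ± 0.41 (log2, SE; 95% confidence interval -1.62 to 0.17; limma's adjusted p = 0.254). Cd3e differed by -0.71 ± 0.37 (interval -1.50 to 0.08; limma's adjusted p = 0.208), and Cd3g by -0.48 ± 0.48 (interval -1.51 to 0.55; limma's adjusted p = 0.536). Without iPGC-1β replicate 3 the differences of Cd3d, Cd3e and Cd3g were -0.29, -0.31 and 0.036. Cd247, which encodes the zeta chain, stayed under the filter, with its best probe above background on 2 arrays.

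Cd3g, Cd3d and Cd3e follow one another on the chromosome among the protein-coding genes of the reference table. The promoter windows of these 3 genes, which were low together on 1 array, are shown with that of Nkg7, which was low with them, and that of Prf1, which was not. Each is 300 bases around the gene's start, from RefSeq (GRCm38.p6), 5′ to 3′ on the gene's strand. Capitals mark AGGAAG, core letters bound by ETS factors, and TGTGGT, core letters bound by RUNX factors, on either strand.
Cd3d (GRCm38.p6 chr9:44981536-44981835, plus strand): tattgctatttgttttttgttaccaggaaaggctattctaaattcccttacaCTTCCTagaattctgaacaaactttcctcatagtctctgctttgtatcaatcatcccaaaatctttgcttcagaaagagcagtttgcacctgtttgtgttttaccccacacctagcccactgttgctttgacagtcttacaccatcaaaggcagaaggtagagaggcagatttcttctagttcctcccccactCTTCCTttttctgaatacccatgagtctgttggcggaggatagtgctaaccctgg
Cd3e (GRCm38.p6 chr9:45009562-45009861, minus strand): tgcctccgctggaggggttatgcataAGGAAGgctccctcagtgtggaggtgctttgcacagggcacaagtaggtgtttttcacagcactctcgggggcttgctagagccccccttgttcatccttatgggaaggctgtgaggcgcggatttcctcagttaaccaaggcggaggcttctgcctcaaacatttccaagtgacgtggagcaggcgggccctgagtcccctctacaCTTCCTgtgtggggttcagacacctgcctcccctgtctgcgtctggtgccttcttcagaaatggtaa
Cd3g (GRCm38.p6 chr9:44980382-44980681, minus strand): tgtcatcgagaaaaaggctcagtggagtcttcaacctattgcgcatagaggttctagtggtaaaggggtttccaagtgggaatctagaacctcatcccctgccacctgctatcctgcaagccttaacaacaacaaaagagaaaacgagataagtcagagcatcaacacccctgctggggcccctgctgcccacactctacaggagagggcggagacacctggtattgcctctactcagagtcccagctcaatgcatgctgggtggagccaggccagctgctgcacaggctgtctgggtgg
Nkg7 (GRCm38.p6 chr7:43436888-43437187, plus strand): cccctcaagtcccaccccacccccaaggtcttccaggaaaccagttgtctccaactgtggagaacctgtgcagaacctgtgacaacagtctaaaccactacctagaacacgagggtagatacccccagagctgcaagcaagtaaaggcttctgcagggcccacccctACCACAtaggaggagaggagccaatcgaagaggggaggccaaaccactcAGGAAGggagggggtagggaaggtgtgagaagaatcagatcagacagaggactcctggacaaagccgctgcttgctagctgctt
Prf1 (GRCm38.p6 chr10:61297586-61297885, plus strand): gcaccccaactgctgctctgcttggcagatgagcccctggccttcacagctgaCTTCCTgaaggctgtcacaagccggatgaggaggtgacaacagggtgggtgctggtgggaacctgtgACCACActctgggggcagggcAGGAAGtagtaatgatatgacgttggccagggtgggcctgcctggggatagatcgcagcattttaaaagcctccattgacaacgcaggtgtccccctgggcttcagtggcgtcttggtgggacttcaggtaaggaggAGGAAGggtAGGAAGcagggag
The windows of Cd3d and Cd3e held AGGAAG at 2 places each and no TGTGGT, that of Cd3g held neither, that of Nkg7 held each at 1 place, and that of Prf1 held AGGAAG at 4 places and TGTGGT at 1. No matches overlapped. Of the 19 measured genes 11 had an entry, with 15 windows in all, of which 12 held AGGAAG and 7 TGTGGT. Of the 32851 windows listed for all genes, 35.4% held AGGAAG and 16.8% held TGTGGT. A match is a match of letters and no more.

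CD4 and CD8 are the coreceptors that divide T cells into helper and cytotoxic cells. Cd8b1, the beta chain of CD8, had 7.23, 6.48, 4.97, 6.69 and 7.01 in iPGC-1β, against 7.68, 7.05, 7.45, 7.02 and 7.82 in wild-type (log2 intensity). The highest iPGC-1β array lay above 2 wild-type arrays, and the lowest, replicate 3, was not above background. The difference was -0.93 ± 0.35 (log2, SE; 95% confidence interval -1.69 to -0.16), and did not pass the threshold (limma's adjusted p = 0.0909; exact permutation p = 0.0317, two-sided). Without iPGC-1β replicate 3 it was -0.55, limma's adjusted p = 0.105. The other Cd8b1 probe was above background on 3 arrays and was not tested. Cd8a was above background on 0 of 10 arrays and Cd4 on 2, so neither has a measured level here.

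Proximal signalling is carried by kinases and an adaptor at the receptor. Lck, the kinase bound to CD4 and CD8, had 7.50, 8.12, 5.48, 7.94 and 7.93 in iPGC-1β, against 7.90, 7.82, 7.79, 8.18 and 8.88 in wild-type (log2 intensity). It differed by -0.72 ± 0.43 (SE; limma's adjusted p = 0.278), and by -0.24 without iPGC-1β replicate 3. Zap70, the kinase that docks on the phosphorylated CD3 chains, ran from 4.75 to 6.87 in iPGC-1β and from 6.43 to 7.14 in wild-type, a difference of -0.51 ± 0.34 (limma's adjusted p = 0.321). Its lowest value, on iPGC-1β replicate 3, was not above background, and a dimmer probe of Zap70 read 5.39 there, level with 5.39 on iPGC-1β replicate 2. Lat, the adaptor that ZAP70 phosphorylates, ran from 5.27 to 6.87 in iPGC-1β and from 6.32 to 6.88 in wild-type, a difference of -0.50 ± 0.25 (limma's adjusted p = 0.192). The groups overlapped in each of the 3 genes.

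Downstream of these, 18 of 39 other genes of T cell receptor signalling were measured, with 0 called higher and 4 lower (limma, adjusted p under 0.05), beside 9.88% and 7.41% of all tested genes, and a median log2 difference of -0.36. The 4 were Bcl10 (-0.51, limma's adjusted p = 0.00947) and Ptpn22 (-0.61, limma's adjusted p = 0.0368), a scaffold and a phosphatase of the pathway, and Cblb and Malt1, a ubiquitin ligase and a protease. Cblb and Malt1 were above background on 5 of 5 wild-type arrays and on 0 iPGC-1β arrays, so they passed the filter only through the group in which they were higher, and their calls are no test of the list. As a description, taking the lowest signal above background on each iPGC-1β array as a ceiling, Cblb was at least 1.40-fold and Malt1 at least 1.24-fold lower. Bcl10 and Malt1 act in many cell types, and Bcl10 had a mean log2 intensity of 9.79 in iPGC-1β and 10.30 in wild-type. Of this list limma called 2 lower without iPGC-1β replicate 3. With iPGC-1β replicate 1 or 4 left out it called 2 in either direction. Leaving out a wild-type array took Cblb and Malt1 out of testing, because the filter still asked for 5 arrays. The list then had 16 tested genes (replicate 1 omitted) or 15 (each other replicate), against 18. The calls were 2 when wild-type replicate 5 was omitted and 1 when another wild-type array was. The filter set the loss of Cblb and Malt1 in advance, so these counts cannot show whether their calls depended on single wild-type arrays.

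Surface and adhesion genes mark T cells and tie them to their neighbours. Cd6, a receptor that binds ALCAM, had 7.30, 7.20, 4.72, 8.01 and 8.34 in iPGC-1β, against 7.70, 7.46, 7.66, 8.31 and 8.31 in wild-type (log2 intensity). The brightest of these 10 values was an iPGC-1β array and the dimmest, not above background, was another. The difference was -0.77 ± 0.53 (SE; limma's adjusted p = 0.349), and -0.17 without iPGC-1β replicate 3; the 2 other kept probes of Cd6 differed by -0.44 and -0.56. Itgae had 8.48, 8.09, 6.42, 8.58 and 8.83 in iPGC-1β, against 8.75, 8.40, 8.64, 8.91 and 8.99 in wild-type. Its difference was -0.66 ± 0.36 (SE; 95% confidence interval -1.45 to 0.13; limma's adjusted p = 0.241), and -0.24 without iPGC-1β replicate 3. The 4 other kept probes of Itgae differed by -0.13 to -0.58, and each read lowest on that array. Thy1, a surface protein of mouse T cells that fibroblasts and neurons also make, ran from 7.13 to 7.99 in iPGC-1β and from 7.73 to 8.42 in wild-type (-0.37 ± 0.19, limma's adjusted p = 0.202). Cd7 ran from 4.65 to 5.77 in iPGC-1β and from 5.12 to 5.95 in wild-type (-0.18 ± 0.22, limma's adjusted p = 0.626). Cd2, an adhesion receptor, was above background on 3 wild-type and 0 iPGC-1β arrays and did not pass the filter.

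Among genes of costimulation and activation, Cd27, a receptor of the TNF family, had 6.10, 6.24, 5.03, 6.37 and 5.70 in iPGC-1β, against 6.58, 6.30, 6.32, 6.53 and 7.49 in wild-type (log2 intensity). Only iPGC-1β replicate 4 reached into the wild-type range. The difference was -0.76 ± 0.28 (SE; 95% confidence interval -1.36 to -0.16), not past the threshold (limma's adjusted p = 0.0784; exact permutation p = 0.0238, two-sided), and without iPGC-1β replicate 3 it was -0.54 with limma's adjusted p = 0.156. A dimmer kept probe of Cd27 differed by -0.14 and was not lowest on iPGC-1β replicate 3. Cd69, an early activation marker that also holds T cells in tissue, ran from 4.92 to 6.43 in iPGC-1β and from 5.86 to 7.27 in wild-type (-0.36 ± 0.31, limma's adjusted p = 0.470). Cd28, the classic costimulatory receptor, was above background on 4 arrays and was not tested.

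Klrd1 encodes CD94, the partner of NKG2 chains in receptors for the MHC molecule Qa-1 on NK cells and intraepithelial lymphocytes. It had 5.91, 5.82, 5.25, 5.87 and 5.92 in iPGC-1β, against 6.61, 6.26, 6.02, 6.33 and 6.36 in wild-type (log2 intensity). Every iPGC-1β array lay below every wild-type array, a separation in this direction that 5.62% of all tested genes showed and that 1 of the 19 showed. Klrd1 differed by -0.56 ± 0.16 (SE; 95% confidence interval -0.91 to -0.22), and passed the test (limma's adjusted p = 0.0299; exact permutation p = 0.00794, two-sided, a minimum for arms of this size). The probe is dim: its deposited signals were 155.8, 165.4, 141.9, 155.8 and 173.4 in iPGC-1β, against 221.4, 214.2, 155.4, 182.5 and 194.7 in wild-type, and before normalization the ranges overlapped. Without background correction the log2 difference was -0.19 with limma's adjusted p = 0.0590, and without iPGC-1β replicate 3 it was -0.44 with limma's adjusted p = 0.0542. The call also depended on wild-type replicates 1, 2 and 4, without each of which limma's adjusted p was 0.0781, 0.0534 and 0.0598. Cd160, a receptor of NK cells and intraepithelial lymphocytes for HVEM, ran from 5.02 to 7.34 in iPGC-1β and from 6.67 to 7.54 in wild-type (-0.56 ± 0.36, limma's adjusted p = 0.314). The other NK-type receptors had no measured level: Cd96 and Cd244 (now Cd244a) were above background on 0 arrays, and the best probes of Klre1 and Klrk1 (NKG2D) on 1 array each.

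The cytotoxic genes did not all follow one pattern. Nkg7, a membrane protein of cytotoxic granules, had 7.95, 7.41, 6.15, 7.85 and 8.00 in iPGC-1β, against 8.31, 7.52, 8.20, 8.44 and 8.78 in wild-type (log2 intensity), a difference of -0.78 ± 0.33 (SE; limma's adjusted p = 0.132; two-sided exact permutation p = 0.0714). Its groups overlapped, and without iPGC-1β replicate 3 it differed by -0.45. Prf1, which encodes perforin, had 10.58, 8.78, 9.03, 8.43 and 9.15 in iPGC-1β, against 9.65, 9.83, 9.46, 9.22 and 9.95 in wild-type. Here iPGC-1β replicate 1 was the brightest and replicate 4 the dimmest of all arrays, and replicate 3 stood among the other iPGC-1β arrays. The difference of Prf1 was -0.43 ± 0.32 (SE; limma's adjusted p = 0.402), and without iPGC-1β replicate 1 it was -0.77 with limma's adjusted p = 0.0182. A dim probe of Prf1 was above background on 0 arrays. Fasl, the death ligand gene, ran from 4.70 to 5.67 in iPGC-1β and from 4.91 to 5.74 in wild-type (-0.12 ± 0.20, limma's adjusted p = 0.739). Gzmb was above background on 0 arrays and Gzmk on 4, so the granzymes were not measured.

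Ccl5, the chemokine of memory and intraepithelial CD8 cells, had the largest estimated difference of the 19. Its log2 intensities were 9.90, 10.02, 6.66, 10.36 and 10.49 in iPGC-1β, against 10.96, 10.40, 10.66, 10.89 and 11.12 in wild-type. In deposited signal these were 986.9, 1112.1, 198.5, 1389.0 and 1595.5 in iPGC-1β, against 2281.7, 1819.5, 1544.1, 1928.2 and 2367.9 in wild-type. On either scale 1 iPGC-1β array, replicate 5, lay above the lowest wild-type array. The difference of Ccl5 was -1.32 ± 0.58 (log2, SE; 95% confidence interval -2.58 to -0.07), and did not pass the test (limma's adjusted p = 0.139; exact permutation p = 0.0159, two-sided). Without iPGC-1β replicate 3 it was -0.62 ± 0.18 (interval -1.02 to -0.23), and passed the test with limma's adjusted p = 0.0399. With wild-type replicate 5 left out as well it was -0.54 with limma's adjusted p = 0.0573. Of the other signals, Ifng was above background on 3 arrays with its better probe, Xcl1, a chemokine for dendritic cells, on 3 and Il2rb, a shared chain of the receptors for IL-2 and IL-15, on 4. The transcription factor genes Tbx21 (T-bet) and Gata3 were above background on 0 and 1 arrays.

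**Figure D2:**
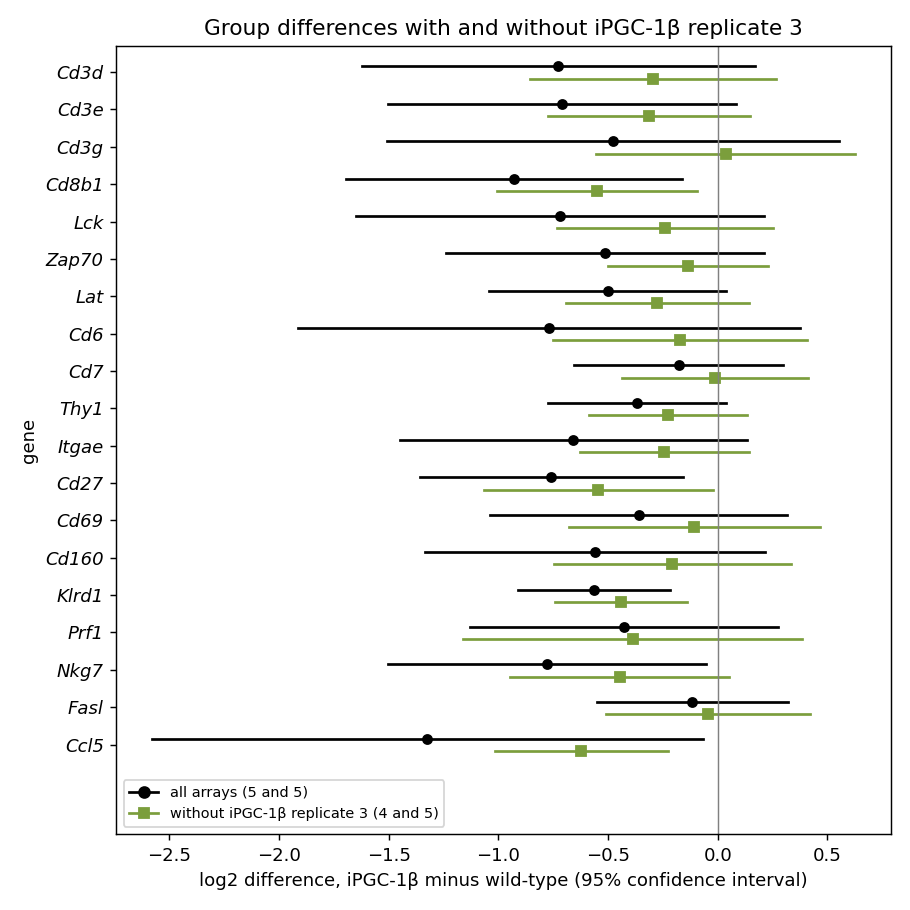
Log2 difference, iPGC-1β minus wild-type, of the 19 measured genes (horizontal axis; bars are 95% confidence intervals), with all arrays (black circles) and without iPGC-1β replicate 3 (green squares). The median is -0.24 without that array and -0.56 with it, most intervals are narrower without it, and the intervals of Klrd1, Cd8b1, Cd27 and Ccl5 lie below 0 in both fits.

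The measured genes differed in how far they dropped on iPGC-1β replicate 3. It was the lowest of the 10 arrays for 17 of the 19, beside 17.3% of all tested genes, and lay at least 1 log2 unit below every other array for 11 of the 19, beside 0.993% of all tested genes. On that array 8 of the 19 were not above background. Among those still above background, Ccl5 was 11.6-fold, Cd3g 5.98-fold, Lck 5.23-fold, Cd3d 4.47-fold, Itgae 4.21-fold, Cd3e 3.94-fold and Nkg7 3.15-fold below the mean of the other 4 iPGC-1β arrays, while Thy1 was 1.64-fold, Klrd1 1.54-fold and Prf1 1.15-fold below it and Lat lay between Nkg7 and Thy1. These folds describe 1 array and carry no test. Of the genes given above only with all arrays, Zap70 differed by -0.14, Lat by -0.27, Thy1 by -0.23, Cd7 by -0.011, Cd69 by -0.11, Cd160 by -0.21, Prf1 by -0.39 and Fasl by -0.044 without that array, with 0 of these called (limma's adjusted p from 0.378 to 0.977). At the other end, wild-type replicate 5 was the highest array for 13 of the 19, beside 1496 of all 9365 tested genes. There Cd3d stood at 8.87, Cd27 at 7.49 and Cd69 at 7.27, each above all 9 other arrays.

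Lists of other genes of these cells had fewer measured members. Of 41 other cytotoxic and NK genes 8 were measured, with 0 called in either direction (2 at an unadjusted p under 0.05 by limma) and a median log2 difference of -0.16; Ctsw, a cathepsin of cytotoxic cells, differed by -0.68 and the chemokine gene Ccl4 by -0.89 (limma's adjusted p = 0.105 and 0.138). Of 20 genes of homing and retention 9 were measured, 0 called (2 unadjusted by limma), with a median of -0.42; Itgb7, the partner chain of Itgae, differed by -0.71 (limma's adjusted p = 0.238). Of 23 T cell transcription factors 10 were measured, 0 called (3 unadjusted by limma), with a median of -0.29. Of 27 T cell cytokine, checkpoint and receptor genes 10 were measured, 0 called (0 unadjusted by limma), with a median of -0.052. Over all tested genes limma called 9.88% higher and 7.41% lower, and picked 31.3% at an unadjusted p under 0.05. On iPGC-1β replicate 3 Ctsw read 5.87, Ccl4 5.03 and Itgb7 4.97, where the other iPGC-1β arrays read at least 6.77, 6.45 and 6.82. Ccl4 and Itgb7 were not above background on replicate 3. The differences of these genes are with all arrays, so that array enters each of them.

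Epithelial cells hold intraepithelial lymphocytes in place and keep them alive through such cues as IL-7, IL-15, CCL25 and E-cadherin. Of 30 such genes 13 were measured, with 0 called higher and 2 lower by limma, beside 9.88% and 7.41% of all tested genes, and a median log2 difference of -0.17. Il7 was 5.61 in iPGC-1β and 6.37 in wild-type (mean log2 intensity), lower by limma with an adjusted p = 0.0299, and the groups did not overlap. On iPGC-1β replicate 3 Il7 read 4.77, not above background, against 5.72 to 5.96 on the other iPGC-1β arrays. Il18, a cytokine that the epithelium makes, was 7.48 in iPGC-1β and 8.66 in wild-type, a difference of -1.18 (limma's adjusted p = 0.00601), also with no overlap. Without iPGC-1β replicate 3 limma called 2 of the 13, and without any 1 of wild-type replicates 1, 4 and 5 it called 1. Whether these calls were again Il7 and Il18 was not checked here. Ccl25, which draws CCR9-bearing T cells to the small intestine, differed by -0.31 (limma's adjusted p = 0.113), Il15 by -0.25 (0.353), Il15ra by 0.40 (0.169) and Cdh1, E-cadherin, by -0.17 (0.444).

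Genes that interferon-gamma, a T cell and NK cell product, is known to raise were low on the same array. The mean of 20 measured genes of 24 was 9.88, 9.80, 8.24, 10.09 and 10.50 on iPGC-1β replicates 1 to 5, against 10.13, 9.87, 10.00, 10.19 and 10.67 on wild-type replicates 1 to 5. For 19 of the 20, all but Irgm1, the lowest of the 10 arrays was iPGC-1β replicate 3, beside 17.3% of all tested genes. In the comparison of groups 0 of the 20 were called higher and 1, Irgm1, lower (-0.89, limma's adjusted p = 0.0313), beside 9.88% and 7.41% of all tested genes, with a median of -0.45, and without that array 1 was called higher and 0 lower. The count of calls was 0 without any 1 of iPGC-1β replicates 2 and 4 and wild-type replicates 1 to 4, and 2 without iPGC-1β replicate 5.

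Genes of leukocytes in general, and markers of other cells, moved with these arrays too. The mean of 13 measured pan-leukocyte genes of 20 was 6.98 on iPGC-1β replicate 3 and 8.00 to 8.19 on the other iPGC-1β arrays, against 9.20 on wild-type replicate 5 and 7.85 to 7.98 on the other wild-type arrays. T cells are leukocytes, so that list is not one of other cells. Its Cd52 is also on the list of T cell cytokine, checkpoint and receptor genes. The mean of 16 macrophage and dendritic cell markers of 22 was 6.26 on iPGC-1β replicate 3 and 7.22 to 7.57 on the other iPGC-1β arrays, against 6.86 to 7.75 in wild-type. The mean of 13 B cell markers of 24 ran from 5.08, on the same array, to 6.43 in iPGC-1β, against 7.33 on wild-type replicate 5 and 5.61 to 6.20 on the other wild-type arrays. The mean of 7 plasma cell markers of 10 ran from 6.60 to 7.79 in iPGC-1β and from 7.15 to 8.17 in wild-type. Of 17 mast cell and granulocyte markers only Mcpt1 was measured, at 7.96 on wild-type replicate 5 and 4.44 to 5.86 elsewhere. By limma 0 pan-leukocyte, 0 macrophage, 1 B cell and 2 plasma cell markers were called, all lower, beside 7.41% of all tested genes. At an unadjusted p under 0.05 limma picked 1, 0, 2 and 2 of them, beside 31.3% of all tested genes. The plasma cell calls were Edem2 (-0.88) and Sdc1 (-0.54), and the rest of that list did not follow them. Its median log2 difference was -0.0071, with 4 of the 7 negative, and Igj (now Jchain) differed by 0.43 (limma's adjusted p = 0.503). Without iPGC-1β replicate 3 and wild-type replicate 5, limma called 1 pan-leukocyte, 2 macrophage and 2 plasma cell markers higher and 2 plasma cell markers lower. With the enterocyte mean as a covariate it called 8 pan-leukocyte, 1 macrophage, 3 B cell and 1 plasma cell markers in either direction.

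Markers of the tissue's main cells did not share the low array. The mean of 18 enterocyte markers of 26 was 11.47 on iPGC-1β replicate 3, the highest of the iPGC-1β arrays, whose others ran from 10.82 to 11.38, against 11.19 on wild-type replicate 5 and 11.61 to 11.90 on the other wild-type arrays. Of these 18 markers 0 were called higher and 6 lower by limma, beside 9.88% and 7.41% of all tested genes. The mean of 9 smooth muscle markers of 9 was 9.66 on that array and 9.55 to 10.45 on the other iPGC-1β arrays, against 9.69 to 10.08 in wild-type. With the B cell mean as a covariate the median log2 difference of the 19 genes was -0.32, with 0 called, and with the enterocyte mean it was -1.11, with 6 called lower. The B cell mean was 5.70 ± 0.60 in iPGC-1β and 6.24 ± 0.65 in wild-type, and the enterocyte mean 11.18 ± 0.26 in iPGC-1β and 11.63 ± 0.27 in wild-type (SD, n = 5 each). Neither fit can test the part of cell makeup in the result. The enterocyte mean was itself lower in iPGC-1β, and the B cell mean was lowest on iPGC-1β replicate 3 and highest on wild-type replicate 5. The part of cell makeup was not tested.

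**Figure D3:**
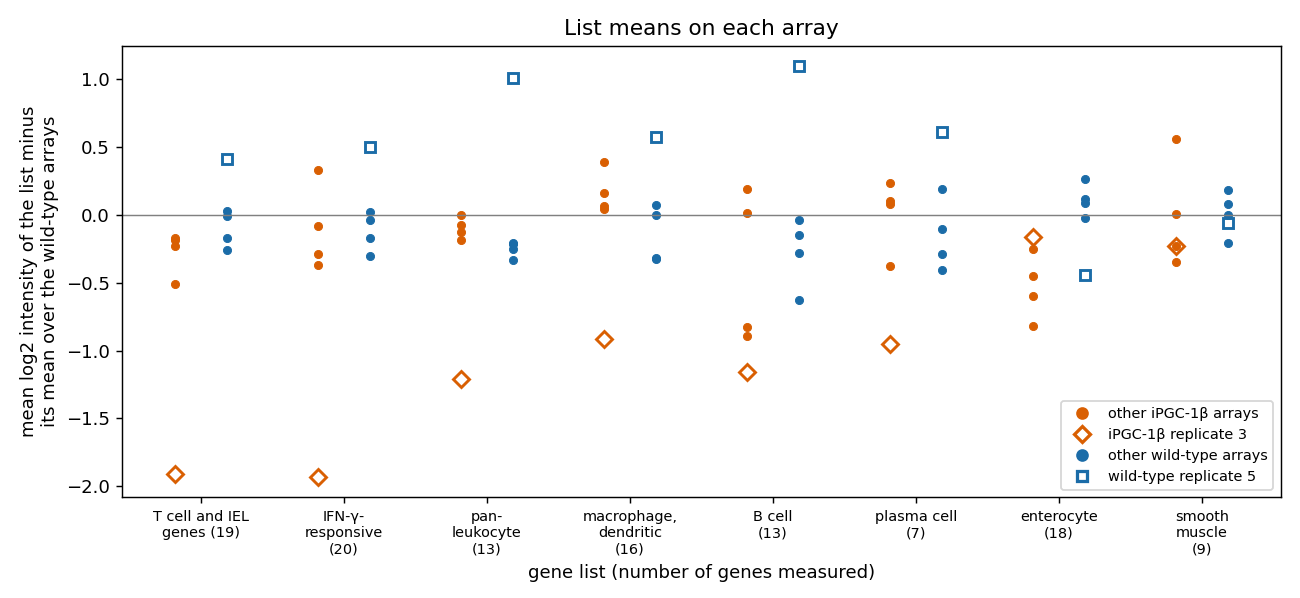
Mean log2 intensity of each gene list on each array, minus the list's mean over the 5 wild-type arrays (vertical axis); iPGC-1β stands left of wild-type in each list, the open diamond is iPGC-1β replicate 3, the open square wild-type replicate 5, and the number of measured genes is in brackets. The diamond is far below the other points in the T cell and interferon-gamma lists, lower than the others in the leukocyte lists, and inside the other points in the enterocyte and smooth muscle lists.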

How the data were processed

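Per the labels' protocols, RNA was biotin-labelled and read on Illumina arrays, and the submitters' processing notes list GenomeStudio. Per the file headers, the deposited table gives for each probe and array a signal, which is a linear intensity, together with its detection p-value. The series also has the authors' own processed intensity values, and the sources used here do not say how these were made. Columns were assigned to samples by title or accession.

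Intensities were background-corrected (normexp from the detection p-values, offset 16), quantile-normalized and log2-transformed with neqc (limma 3.58.1, R 4.3.3). Probes with a detection p under 0.05 on at least 5 of 10 arrays were kept, 12349 in all, and the kept probe with the highest mean stood for its symbol, giving 9365 genes. Probe names are the array's own; positions and sequences of probes were not used here. Groups came from the genotype label. They were compared with limma (lmFit, eBayes), and p-values were adjusted by Benjamini-Hochberg over the tested genes; differences are iPGC-1β minus wild-type. Permutation tests run over all 252 relabelings. Replicates are separate samples by their labels, with no litter or slide given, so the p-values reflect only how far these samples spread, which may be technical. The 37 genes, the other lists, and the rule to name all 37 and up to 4 of each other list by smallest p were chosen with earlier results of these data known; Il15 and Cdh1 fall outside that rule and are named for their role, and not every gene it picked is printed. The pipeline was tested on simulated data in which genes were independent and no array stood apart, so that run says nothing of an array such as iPGC-1β replicate 3. Alternatives were other background corrections, normalizations, filters, variance models, covariates, thresholds and each array left out.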

Additional observations from a re-analysis of the deposited data

Results flagged for a closer look

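Single arrays stood apart from the other 4 of their group in 16 of 66 sets of 5 values examined. The sets were the 19 measured genes and 14 means in each group. Every low array was iPGC-1β replicate 3 and every high array wild-type replicate 5. For 1 set taken alone chance gives about 1 in 20. The sets are not independent, because they read the same arrays and 1 of the means is that of the 19 genes. The 16 therefore cannot be weighed against that rate, and they count the same arrays repeatedly.

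iPGC-1β replicate 3 was low, against the range of the other iPGC-1β arrays, for Ccl5 at 6.66 (others 9.90 to 10.49), Cd3d at 5.41 (others 7.36 to 7.72), Lck at 5.48 (others 7.50 to 8.12), Zap70 at 4.75 (others 6.52 to 6.87) and Klrd1 at 5.25 (others 5.82 to 5.92), all in log2 intensity. The mean of the 19 genes was 5.68 there (others 7.08 to 7.42). Among the other lists its means were 6.98 for pan-leukocyte genes, 6.26 for macrophage and dendritic cell markers, 6.16 for other T cell receptor signalling (others 6.66 to 6.74), 5.30 for other cytotoxic and NK genes (others 6.36 to 6.68) and 5.73 for T cell cytokine, checkpoint and receptor genes (others 6.51 to 6.64).

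Wild-type replicate 5 was high, against the other wild-type arrays, for Cd3d at 8.87 (others 7.46 to 7.77), Cd27 at 7.49 (others 6.30 to 6.58) and Cd69 at 7.27 (others 5.86 to 6.27). Its mean was 9.20 for pan-leukocyte genes and 7.23 for other T cell receptor signalling (others 6.78 to 6.89).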

How the results depend on the processing

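Over 23 alternatives 0 of the measured genes were called higher. The count called lower, 1, was 0 without background correction, with the authors' processed values, with detection p under 0.01 on all 10 arrays (8 of the 19 left), with the B cell covariate, and without iPGC-1β replicate 3 and wild-type replicate 5 together, tried once the data had been seen; it was 3 at an adjusted p under 0.10 and 6 with the enterocyte covariate. Leaving out each array in turn gave 0 to 2. Klrd1 kept its call under 14 of 22 alternatives, with limma's adjusted p from 0.0198 to 0.0781 and a log2 difference from -0.79 to -0.19; among single arrays it was lost without iPGC-1β replicate 3 or wild-type replicate 1, 2 or 4. Ccl5 was called under 1 of 23. The median log2 difference was -0.76 to -0.24 without single arrays, with -0.24 without iPGC-1β replicate 3, and -0.14 without that array and wild-type replicate 5. It was -0.29 without background correction, -0.32 with the authors' processed values, -0.36 with no filter on dim probes, -0.32 after adding the B cell mean to the fit and -1.11 after adding the enterocyte mean. Signs turned for Cd3g (0.036 without iPGC-1β replicate 3, 0.19 without both arrays; -0.69 was its lowest value without 1 array), for Cd69 (0.0078 with the B cell covariate, 0.14 without both arrays; -0.49 to -0.11 without 1 array) and for Fasl (0.027 with that covariate, 0.0070 without iPGC-1β replicate 5; -0.24 was its lowest value without 1 array). None of these was called, and the cause was not tested. Over all tested genes the lower calls, 694, were 1077 at an adjusted p under 0.10, 1105 with array weights, and 421 to 792 without single arrays (449, 445, 421 and 458 without wild-type replicates 1 to 4 in turn). Among the other lists, omitting wild-type replicate 5 gave 2 calls of T cell transcription factors, 1 of homing and 1 of macrophage genes, each with 0 on all arrays; without iPGC-1β replicate 1 there was 1 of the other cytotoxic genes, and without iPGC-1β replicate 5 1 transcription factor. The B cell call was lost without any 1 of iPGC-1β replicates 1, 3 and 5 and wild-type replicates 3 to 5, and 1 plasma cell gene was called without wild-type replicate 1 or 2. No paired analysis was possible because the labels number the arrays 1 to 10 and share no number between groups. Dim probes limit the rest: 16 genes with a probe could not be tested, and their absence from the calls says nothing of their levels.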

Other observations

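Beyond the T cell genes, 93 of the 9365 tested genes lay at least 1 log2 unit below every other array on iPGC-1β replicate 3, and 6 lay as far above. Of the 93, 11 are T cell genes described above and 11 are on the interferon-gamma list. The widest gap was that of Ubd, an interferon-induced ubiquitin-like gene, at 5.33 on that array and 10.22 or more on the other 9. Igtp, an interferon-induced GTPase gene, read 7.13 there and at least 9.99 elsewhere, Indo (now Ido1), of tryptophan breakdown, 7.72 and at least 10.15, Cd52, a leukocyte surface gene, 7.01 and at least 9.30, and Cd274, which encodes PD-L1, 6.18 and at least 8.11. Among the 93 were also 7 symbols of the Hist1h2 histone family. Among those above were Clec2e, Col23a1, Retsat, Acox2 and Slc28a1, by 1.01 to 1.27 log2 units. These genes were picked by their values on 1 array, and 7 of the 93 were called lower between the groups with all arrays. Over all tested genes the median difference of that array from the mean of the other iPGC-1β arrays was -0.0027.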
